A study of Mus musculus with 4 samples.

Results

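The genes described here are those of the Wnt ligands, their receptors and their secreted antagonists. They were taken by gene symbol: every symbol that begins with Wnt, Fzd, Sfrp, Dkk or Rspo followed by a digit, together with Frzb, Wif1, Lrp5, Lrp6, Axin2 and Tcf7l2. This rule found 48 of the 19057 genes on the array, read by 85 probes. Live stromal-vascular cells of mouse adipose tissue had been sorted by fluorescence, and their RNA was read on Illumina Mouse-6 V2 BeadChips. There were 4 libraries in 3 groups: 2 labelled null GFP+ (numbered 1 and 3), 1 labelled het GFP+ and 1 labelled null GFP-. Strain and age are labelled Black 6 and 2 months, whereas the study's methods describe a mixed C57BL/6-129/SV background. GFP comes from the AdipoTrak system, in which the transactivator tTA, knocked into the Pparg locus, drives TRE-H2B-GFP. The het GFP+ control thus carries 1 tTA allele of Pparg beside a working one, and the null mice, the source of null GFP+ and null GFP- cells, carry that tTA allele and a floxed one. The study used Sox2-Cre, which deletes the floxed allele throughout the body, and TRE-Cre, which deletes it where tTA is active, and its text names the first strain for the arrays in one place and the second in another, while the labels give neither. The labels do not say which mice made each library, so the p-values measure only a spread between samples, which may be technical. That spread came from the 2 null GFP+ libraries, with variance shared across probes. The groups with 1 library each were assumed to vary like them.

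Pparg, the targeted gene, went against the labels. Its brightest probe read 3217 and 2479 intensity units in the pair of libraries labelled null GFP+, against 188 units in that labelled het GFP+ and 209 units in that labelled null GFP-. The log2 difference was 4.84 against het GFP+ (SE 0.31, adjusted p = 0.00926) and 4.55 against null GFP- (adjusted p = 0.0118). A second Pparg probe gave a log2 difference of 3.12 against het GFP+ (adjusted p = 0.0192). Whether either probe lies within the floxed exons was not tested. Every direction below therefore belongs to the labels as deposited. Xist, which coats the silenced X chromosome, read 2559 and 2371 units in the libraries labelled null GFP+, 100.2 in that labelled het GFP+ and 1439.8 in that labelled null GFP-, so the library labelled het GFP+ stood apart from the other 3 in this gene.

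Wnt proteins are secreted, lipid-modified ligands that bind Frizzled receptors (Fzd). Together with the co-receptors Lrp5 and Lrp6 they stabilize beta-catenin, which acts with factors such as Tcf7l2 and raises targets such as Axin2. R-spondins (Rspo) enhance this signal, secreted Frizzled-related proteins (Sfrp, Frzb) and Wif1 bind the ligands, and Dickkopf proteins (Dkk) act mostly on Lrp5 and Lrp6. In fat tissue, Wnt10b is known for holding preadipocytes undifferentiated, while Wnt5a and Wnt5b signal largely without beta-catenin.

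Promoter sequence is shown for the members that differed over 2-fold, at an unadjusted p under 0.05, between the libraries labelled null GFP+ and het GFP+. Of these 6 members, 3 were in the table of RefSeq promoters (GRCm38.p6), and each window runs from 250 bases before the annotated start to 50 bases after it. Sfrp2 lies at chr3:83766071-83766370 on the plus strand, Wnt10b at chr15:98778101-98778400 on the minus strand and Wnt2 at chr6:18030396-18030695 on the minus strand. Capitals mark a GC box (GGGCGG) or a CCAAT box (CCAAT), read on both strands.
Sfrp2: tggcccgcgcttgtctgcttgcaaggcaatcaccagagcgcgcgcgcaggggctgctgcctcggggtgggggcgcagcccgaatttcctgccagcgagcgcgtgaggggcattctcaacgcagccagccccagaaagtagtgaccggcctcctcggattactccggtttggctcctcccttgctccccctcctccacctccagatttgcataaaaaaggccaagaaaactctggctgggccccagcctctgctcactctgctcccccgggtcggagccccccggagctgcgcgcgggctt
Wnt10b: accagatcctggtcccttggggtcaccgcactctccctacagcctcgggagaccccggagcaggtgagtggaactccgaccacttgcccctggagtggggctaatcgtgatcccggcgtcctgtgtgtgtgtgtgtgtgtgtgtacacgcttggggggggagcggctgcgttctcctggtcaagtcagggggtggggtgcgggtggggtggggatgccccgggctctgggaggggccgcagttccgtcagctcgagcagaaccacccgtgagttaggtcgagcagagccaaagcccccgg
Wnt2: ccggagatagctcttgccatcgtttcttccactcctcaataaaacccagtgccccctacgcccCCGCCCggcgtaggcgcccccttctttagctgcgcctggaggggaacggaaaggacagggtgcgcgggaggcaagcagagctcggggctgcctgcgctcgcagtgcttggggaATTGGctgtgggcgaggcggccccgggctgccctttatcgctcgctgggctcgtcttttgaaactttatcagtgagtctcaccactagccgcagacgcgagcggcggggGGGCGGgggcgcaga
Of these windows, that of Wnt2 held 2 GC boxes and 1 CCAAT box, and those of Sfrp2 and Wnt10b held neither. None of the 3 held the core letters of a TCF/LEF site (CTTTGA), the element through which beta-catenin acts, or a nuclear receptor half-site (AGGTCA), the element of which PPARγ sites are built. Among all 32851 promoters in the table, CTTTGA was found in 16%, AGGTCA in 16.3%, the GC box in 35.7% and the CCAAT box in 37.4%. Of the 31 members with a promoter in the table, 5 held CTTTGA (Dkk1, Frzb, Fzd1, Wnt11 and Wnt5b), 2 held AGGTCA (Frzb and Wnt16), 24 held a GC box and 12 a CCAAT box. A match of these letters is a description of the window and not a binding site.

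A gene was represented by its brightest probe, and a probe counted as well above background at a signal of 154.4 or more. Of the 48 genes, 28 reached that signal in at least 1 library and were tested, and 17 of these reached it in all 4. The other 20 read between 86.6 and 151.8 units throughout and were not compared. They were Dkk1, Dkk2, Dkk4, Frzb, Fzd9, Rspo4, Sfrp5 and 13 of the 19 Wnt ligands, namely Wnt1, Wnt2b, Wnt3, Wnt3a, Wnt4, Wnt7a, Wnt7b, Wnt8a, Wnt8b, Wnt9a, Wnt10a, Wnt11 and Wnt16. The measurable set thus held 6 Wnt ligands, 10 of 11 Frizzled symbols, 3 of 4 R-spondins, 3 of 4 numbered Sfrp genes and 1 of 4 Dickkopf genes. Probes differ in how strongly they bind, so intensities are set against each other between libraries and not between genes. Printed intensities include the background, which averaged 108 units, whereas log2 differences and the fold bounds derived from them are taken after it was corrected for. For dim probes the log2 differences are therefore larger than the plain ratios of the printed intensities imply. A fold bound is taken against the lowest signal well above background, and can be larger or smaller than the plain ratio.

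**Figure D1:**
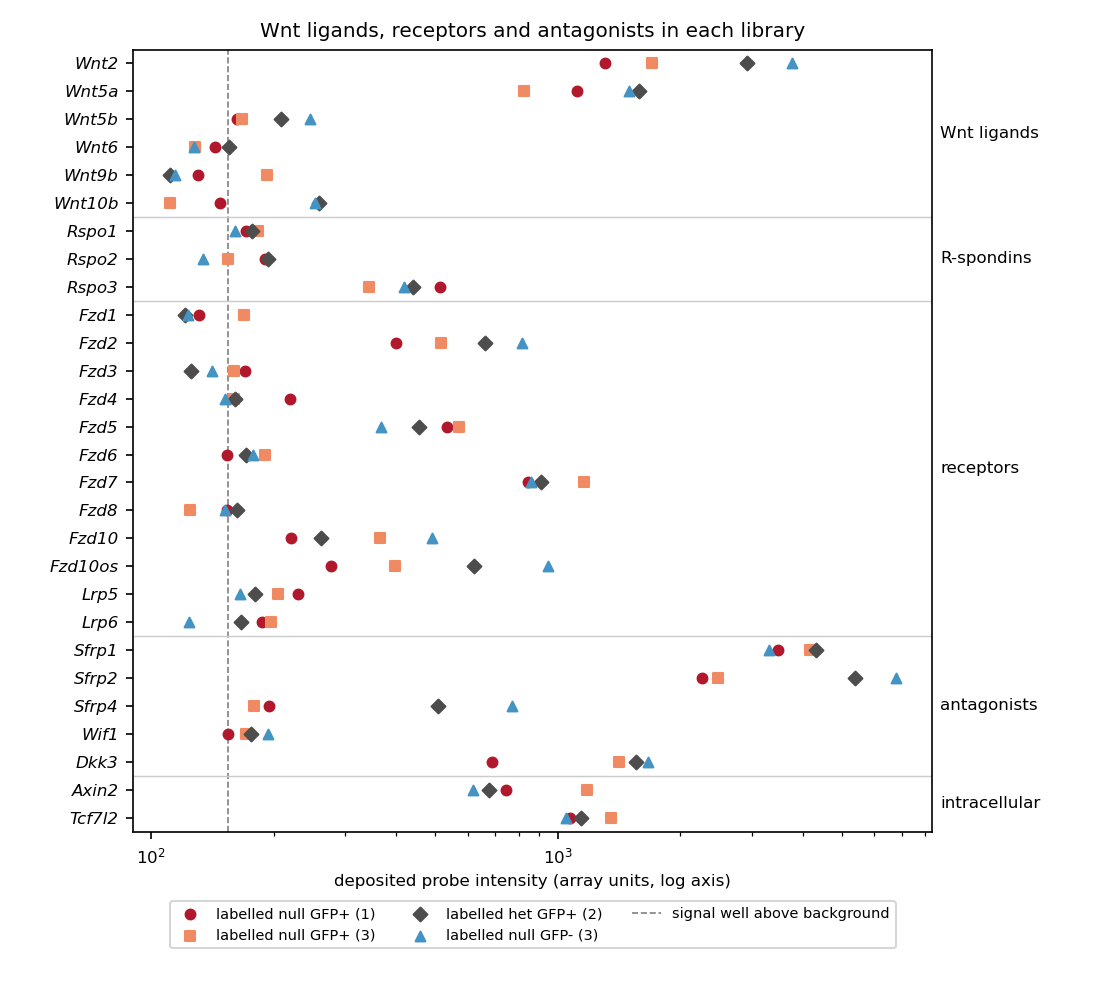
Deposited probe intensity (log axis, array units) of the 28 tested genes, 1 point per library: circles and squares for the libraries labelled null GFP+ (1 and 3), diamonds for that labelled het GFP+ and triangles for that labelled null GFP-. The dashed line is the signal well above background, 154.4 units. The points of Sfrp4, Sfrp2, Wnt2 and Wnt10b fall apart by label, with both null GFP+ libraries lowest, whereas those of Sfrp1, Tcf7l2 and Fzd7 lie close together.

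The secreted antagonist Sfrp4 was the member that passed the adjusted threshold, and it did so against each of the other groups. It read 195 and 179 units in the libraries labelled null GFP+, against 508 units in the library labelled het GFP+ and 769.8 units in that labelled null GFP-. Both null GFP+ libraries lay just above background and far below the other 2. The log2 difference was -2.14 against het GFP+ (95% interval -2.88 to -1.40, adjusted p = 0.0305) and -2.85 against null GFP- (95% interval -3.58 to -2.11, adjusted p = 0.0179). With either null GFP+ library alone, the difference against het GFP+ was -2.27 (library 3) and -2.02 (library 1). The call was lost in each comparison when dim probes were kept (adjusted p = 0.0785 against het GFP+ and 0.0650 against null GFP-). It was also lost when the methods' t-test, adjusted by Benjamini-Hochberg, took the place of limma (adjusted p = 0.621 and 0.625). In sorted bulk RNA, fewer cells that express a gene and less of its RNA per cell cannot be told apart.

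Sfrp2, which like Sfrp4 carries a Frizzled-type cysteine-rich domain, was likewise lowest in the null GFP+ libraries and highest in null GFP-. It read 2255 and 2473 units in the libraries labelled null GFP+, against 5387 units in that labelled het GFP+ and 6782 units in that labelled null GFP-. The pair of null GFP+ values lay within 0.14 of each other on the log2 scale, far closer than their distance to the other libraries. The log2 difference was -1.22 against het GFP+ (95% interval -1.93 to -0.51, unadjusted p = 0.00672, adjusted p = 0.109) and -1.56 against null GFP- (95% interval -2.27 to -0.85, adjusted p = 0.0596). Neither passed the adjusted threshold. Both passed it with no background correction (adjusted p = 0.0197 against het GFP+ and 0.00781 against null GFP-).

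Sfrp1, the third measurable gene of this family, did not follow. It read 3469 and 4157 units in the libraries labelled null GFP+, against 4301 units in that labelled het GFP+ and 3299 units in that labelled null GFP-, so the null GFP+ values lay between the others. Against het GFP+ this gave a log2 difference of -0.18 (95% interval -0.93 to 0.56), and against null GFP- one of 0.21 (95% interval -0.53 to 0.95). A second probe of Sfrp1 gave 3115 and 3571 units in null GFP+, 4865 in het GFP+ and 3437 in null GFP-.

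Of the remaining antagonists, Dkk3, the divergent Dickkopf, read 687 and 1411 units in the libraries labelled null GFP+, against 1552 units in het GFP+ and 1664 units in null GFP-. Here the 2 null GFP+ libraries differed from each other by 1.15 on the log2 scale, and a second probe gave the same order (678, 1343, 1360 and 1533 units). The log2 difference against het GFP+ was -0.72 (95% interval -2.05 to 0.61, adjusted p = 0.595). It was -0.15 with library 3 alone and -1.30 with library 1 alone. Wif1, the Wnt inhibitory factor, read 154 and 171 units in null GFP+, 176 in het GFP+ and 193 in null GFP-, and its log2 differences, -0.27 and -0.53, passed neither test.

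**Figure D2:**
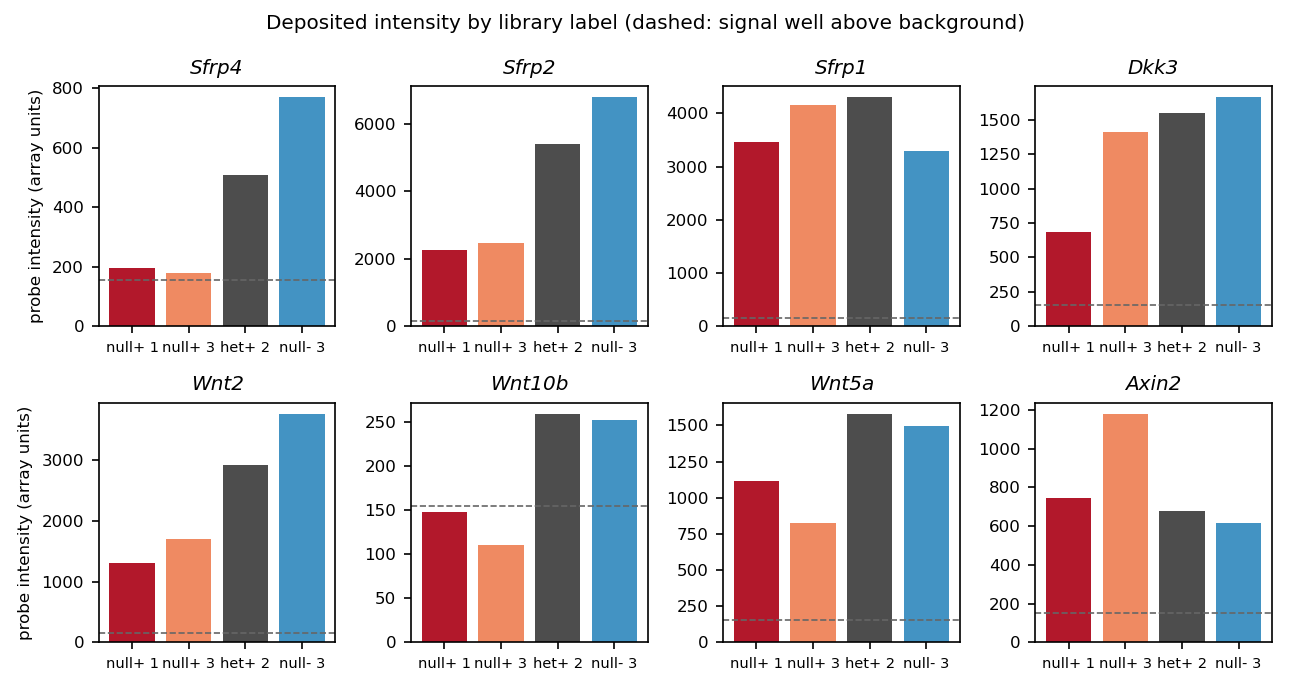
Deposited intensity (array units, linear axis from 0) of 8 members, 1 bar per library in the order null GFP+ 1, null GFP+ 3, het GFP+ and null GFP-. The dashed line is the signal well above background. The null GFP+ bars of Sfrp4, Sfrp2 and Wnt2 are alike and short, whereas those of Dkk3 and Axin2 differ between the 2 null GFP+ libraries.

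Among the ligands, Wnt2, which signals through beta-catenin, read 1307 and 1702 units in the libraries labelled null GFP+, against 2922 units in that labelled het GFP+ and 3766 units in that labelled null GFP-. Both null GFP+ values lay below both others. Wnt2 had a log2 difference of -1.02 against het GFP+ (95% interval -1.82 to -0.21, unadjusted p = 0.0225, adjusted p = 0.217) and -1.39 against null GFP- (95% interval -2.20 to -0.59, unadjusted p = 0.00657, adjusted p = 0.105). It was over 2-fold in each comparison and passed the adjusted threshold in neither. With no background correction it passed that threshold against null GFP- (adjusted p = 0.0232).

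Wnt10b was measurable by 1 of its 2 probes, and only outside the null GFP+ libraries. Its other probe was within background in every library, at 96.2 and 103.6 units in null GFP+, 92.9 in het GFP+ and 98.5 in null GFP-. It read 147 and 111 units in the libraries labelled null GFP+, where its probe was not well above background, against 259 units in het GFP+ and 253 units in null GFP-. Where no library of a group is well above background, a fold change has only a bound. It is computed on the background-corrected log2 scale against the lowest signal well above background. On that scale Wnt10b was at least 2.69-fold lower in null GFP+ than in het GFP+ (unadjusted p = 0.00647, adjusted p = 0.107) and at least 2.59-fold lower than in null GFP- (adjusted p = 0.111). Neither passed the adjusted threshold. With no background correction its log2 differences were -1.02 and -0.98, so the size of the bound holds only for the corrected scale.

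Wnt5a read 1115 and 824 units in the libraries labelled null GFP+, against 1579.7 units in het GFP+ and 1495 units in null GFP-. The values did not overlap, but the log2 differences of -0.78 (95% interval -1.63 to 0.06) and -0.70 (95% interval -1.54 to 0.15) had intervals that include 0. A second Wnt5a probe also had both null GFP+ values lowest, with 259 and 213 units in null GFP+, 337 in het GFP+ and 354 in null GFP-. Its close relative Wnt5b read 163 and 168 units in null GFP+, against 209 in het GFP+ and 246 in null GFP-. These signals were dim but well above background in every library. The log2 difference of Wnt5b was -0.68 against het GFP+ (adjusted p = 0.333) and -1.08 against null GFP- (unadjusted p = 0.0105, adjusted p = 0.138).

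The other 2 ligands stood at the edge of detection. Wnt9b was well above background in 1 library, with 130.5 and 193 units in the libraries labelled null GFP+, against 111 in het GFP+ and 114 in null GFP-. Neither log2 difference, 1.18 or 1.11, passed a test. No fold bound is given, since 1 of the null GFP+ libraries was itself not well above background. Wnt6 read 144 and 128 units in null GFP+, 155 in het GFP+ and 128 in null GFP-, and its 2 probes gave opposite signs against null GFP- (0.24 and -0.83).

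Receptors were found on both sides of 0. Fzd2 read 400.0 and 516 units in the libraries labelled null GFP+, against 662 units in het GFP+ and 817 units in null GFP-, a log2 difference of -0.66 (adjusted p = 0.429) and -1.005 (unadjusted p = 0.0267, adjusted p = 0.235). Fzd3, a receptor known for planar polarity and axon guidance, ran the other way. It read 169.8 and 159.9 units in null GFP+ and was not well above background elsewhere, with 125 units in het GFP+ and 141 units in null GFP-. The log2 difference against het GFP+ was 1.03 (unadjusted p = 0.0146, adjusted p = 0.173), bounded at 1.17-fold or more, and against null GFP- it was 0.55 (adjusted p = 0.478). A second Fzd3 probe gave 0.89 and 1.02, and passed the adjusted threshold in neither.

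Fzd10 and Fzd10os, a transcript annotated on the opposite strand at Fzd10, had separate probes. Fzd10os read 277 and 397 units in the libraries labelled null GFP+, against 621 units in het GFP+ and 945 units in null GFP-. Its log2 difference was -1.16 against het GFP+ (unadjusted p = 0.0307, adjusted p = 0.253) and -1.85 against null GFP- (unadjusted p = 0.00504, adjusted p = 0.0909). Fzd10 itself read 221 and 366 units in null GFP+, 262 in het GFP+ and 491 in null GFP-. Its null GFP+ values thus overlapped het GFP+ and lay below null GFP-, with log2 differences of 0.14 (95% interval -1.14 to 1.43) and -1.09 (95% interval -2.38 to 0.20).

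Fzd7 and Fzd5 had clear signals, and neither passed the adjusted threshold. Fzd7 read 845 and 1162 units in the libraries labelled null GFP+, 908 in het GFP+ and 857 in null GFP- (log2 differences 0.14 and 0.23). Fzd5 read 533 and 571 units in null GFP+, 455 in het GFP+ and 367 in null GFP-. The difference of Fzd5 was 0.34 against het GFP+ (adjusted p = 0.640) and 0.74 against null GFP- (adjusted p = 0.307), and its second, dimmer probe gave 0.71 and 0.05. Fzd1, Fzd4, Fzd6 and Fzd8 stayed between 121 and 220.0 units in every library, and none passed either test. Of these, Fzd8 had the lowest log2 difference against het GFP+ (-0.59) and Fzd1 the highest (0.74).

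The co-receptors Lrp5 and Lrp6 were both dim. Lrp5 read 230.0 and 205 units in the libraries labelled null GFP+, 179.8 in het GFP+ and 165 in null GFP-. Its log2 differences were 0.51 (adjusted p = 0.498) and 0.78 (unadjusted p = 0.0456, adjusted p = 0.318). Lrp6 read 188 and 197 units in null GFP+, 167 in het GFP+ and 124 in null GFP-, the last a signal within background. Its log2 difference was 0.43 against het GFP+ (adjusted p = 0.545) and 1.51 against null GFP- (unadjusted p = 0.00266, adjusted p = 0.0637), at least 1.61-fold on the corrected scale, and with no background correction it was 0.63 against null GFP-. A second Lrp6 probe did not show this, with 168 and 132 units in null GFP+ and 154 units in null GFP- (log2 difference -0.14).

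None of the R-spondins passed either test. Rspo3 read 514 and 343 units in the libraries labelled null GFP+, 440.4 in het GFP+ and 419 in null GFP-, so its null GFP+ values spanned the others. The log2 difference was -0.10 against het GFP+ (95% interval -1.12 to 0.92), and a dimmer probe gave 0.84. Rspo1 lay between 161 and 183 units in all 4 libraries. Rspo2 read 190.0 and 155 units in null GFP+, 193 in het GFP+ and 134 in null GFP-, with log2 differences of -0.37 and 0.87.

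Axin2, the common readout of beta-catenin signalling, read 744 and 1179.8 units in the libraries labelled null GFP+, against 678 units in het GFP+ and 617 units in null GFP-. Both null GFP+ values lay above both others, but they differed from each other by 0.74 on the log2 scale. Axin2 had a log2 difference of 0.52 against het GFP+ (95% interval -0.48 to 1.53, adjusted p = 0.612) and 0.68 against null GFP- (95% interval -0.33 to 1.69, adjusted p = 0.544). Tcf7l2, a nuclear partner of beta-catenin, read 1069.7 and 1349 units in null GFP+, 1139 in het GFP+ and 1044 in null GFP-. Its log2 difference was 0.08 against het GFP+ (95% interval -0.70 to 0.86) and 0.22 against null GFP- (95% interval -0.56 to 1.00).

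**Figure D3:**
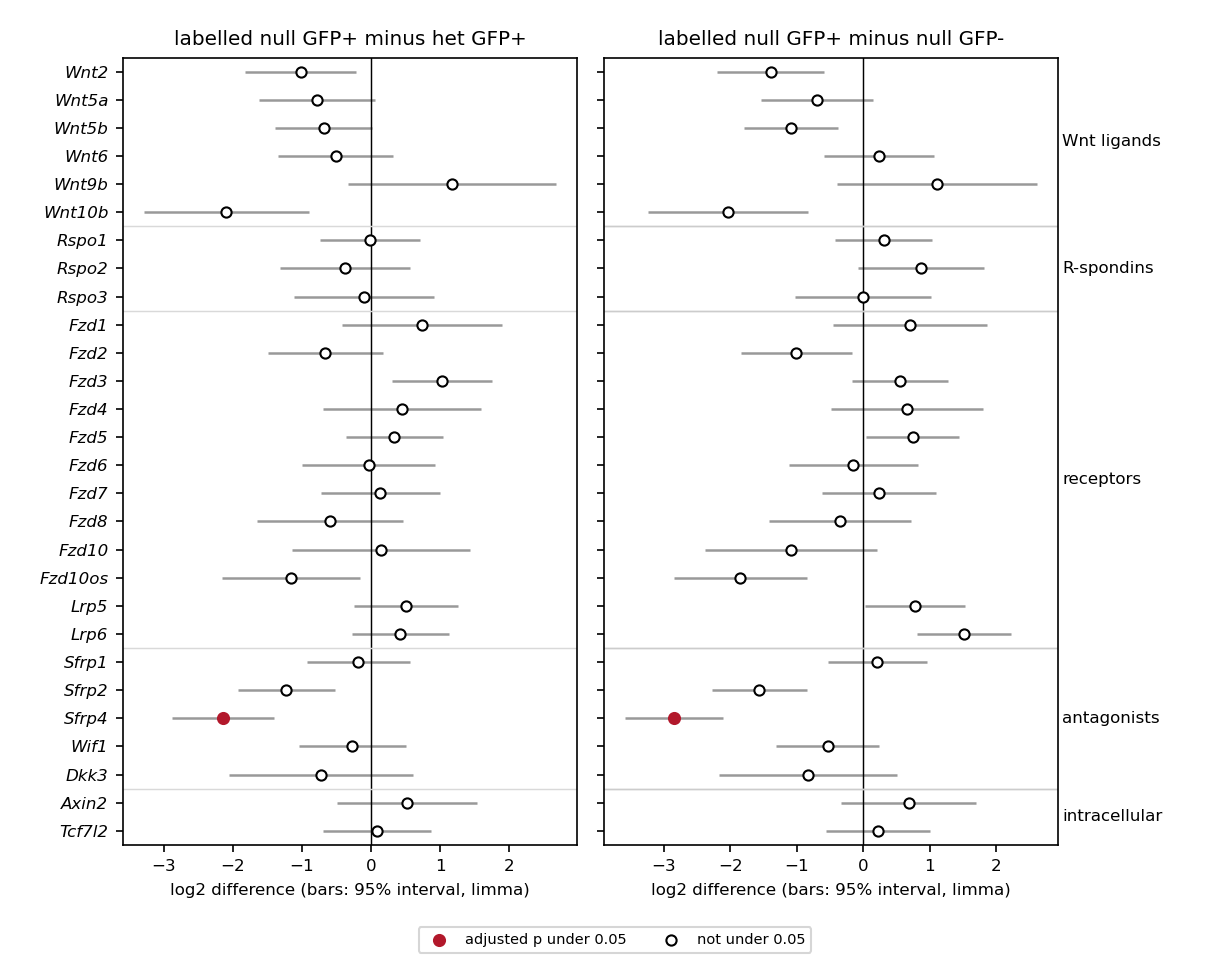
Log2 difference of each tested gene (points) with its 95% interval (bars) for libraries labelled null GFP+ minus het GFP+ (left) and null GFP+ minus null GFP- (right). Filled points have an adjusted p under 0.05. Sfrp4 is filled in each panel, at -2.14 and -2.85, and the range of all members runs to 1.18 on the left and 1.51 on the right.

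Counted together, 1 of the 28 tested members fell and 0 rose at an adjusted p under 0.05 (limma) in null GFP+ against het GFP+. Among all 9964 genes tested in that comparison, 2.63% were called lower and 1.30% higher, 3.93% in all. By the looser rule of over 2-fold at an unadjusted p under 0.05, 5 members were lower (Sfrp4, Wnt10b, Sfrp2, Fzd10os and Wnt2), or 17.9%, beside 6.33% of all genes, and 1 was higher (Fzd3), beside 5.18% of all genes. Against null GFP-, 1 member fell and 0 rose at an adjusted p under 0.05, where 2.66% of all genes were called lower and 1.31% higher, 3.97% in all. The looser rule gave 7 lower members in that comparison (Sfrp4, Wnt10b, Fzd10os, Sfrp2, Wnt2, Wnt5b and Fzd2), or 25%, beside 7.11% of all genes, and 1 higher (Lrp6), beside 4.90%. At an unadjusted p under 0.05 alone, 6 of the 28 tested members differed from het GFP+ and 10 of 28 from null GFP-, beside 16.9% and 16.2% of all genes. The methods' t-test with the same 2-fold limit called 0 of the 28 members lower against het GFP+ and 2 against null GFP-. It called 189 and 203 of the 9964 genes lower in these comparisons. These comparisons share the null GFP+ libraries and are not independent of each other.

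The median log2 difference of the tested members was -0.14 against het GFP+ and 0.10 against null GFP-, beside 0.05 and 0.02 over all genes tested. Both null GFP+ libraries lay below both others for 10 members, or 35.7%, and above both for 7, or 25%. Over all genes these shares were 24.3% and 30.1%. Between the 2 null GFP+ libraries themselves, 3 members (Dkk3, Fzd10 and Wnt9b) were over 2-fold higher in library 3, or 10.7%, beside 2.59% of all genes, and 0 were over 2-fold lower, beside 1.35% of all genes.

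The het GFP+ and null GFP- groups had 1 library each and were compared by value only. Over 2-fold differences were found for Lrp6 and Rspo2, both higher in het GFP+, and for Fzd10, which was lower. The log2 differences of het GFP+ over null GFP- were 1.09 for Lrp6, 1.25 for Rspo2 and -1.23 for Fzd10. Lrp6 and Rspo2 were not well above background in null GFP-, so these sizes hold only for the corrected scale. Lrp6 read 167 units in het GFP+ and 124 in null GFP-, and Rspo2 read 193 and 134. A second Lrp6 probe gave 143.5 and 153.7 units, neither well above background. Of the tested members, 7.14% were thus over 2-fold higher and 3.57% lower, beside 1.25% and 1.79% of all genes. The members lower in null GFP+ by the looser rule in both comparisons differed by less than 2-fold here. They were at -0.70 for Sfrp4, -0.69 for Fzd10os, -0.34 for Sfrp2, -0.38 for Wnt2 and 0.06 for Wnt10b. All but Wnt10b were thus lower in het GFP+ than in null GFP-.

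The rest of the pathway was read from 3 lists: proteins of Wnt secretion and further receptors, intracellular components, and target genes. Of 18 tested genes of secretion and further receptors, 0 passed the adjusted threshold in either comparison, with medians of 0.36 against het GFP+ and 0.27 against null GFP-. The one farthest from 0 was Ptk7, a co-receptor of the planar polarity branch. It read 217 and 356 units in the libraries labelled null GFP+, against 114 units in het GFP+ and 140.0 units in null GFP-, at least 2.93-fold on the corrected scale in each comparison (adjusted p = 0.0711 against het GFP+ and 0.147 against null GFP-). Lgr5, an R-spondin receptor, was not well above background in null GFP+ with 146 and 153 units. It read 253 units in het GFP+ and 172 units in null GFP- (adjusted p = 0.0693 and 0.560). Gpc3, a glypican that binds Wnt ligands, read 6422 and 8875 units in null GFP+, 14239 in het GFP+ and 20952 in null GFP- (log2 difference -1.48 against null GFP-, adjusted p = 0.1001).

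Among 33 tested intracellular components, 1 fell against het GFP+ and 2 fell against null GFP-, and 0 rose. Over all genes, 2.63% and 2.66% were called lower in these comparisons, and 1.30% and 1.31% higher. Dact2, a protein of the Dishevelled-binding Dapper family, read 282 and 239 units in the libraries labelled null GFP+, against 1004 units in het GFP+ and 762 units in null GFP-. Both null GFP+ values were far below the others, with log2 differences of -2.45 (adjusted p = 0.0251) and -2.01 (adjusted p = 0.0416). Cxxc4, which binds Dishevelled and restrains the pathway, read 123 and 132 units in null GFP+, a signal within background, against 213 in het GFP+ and 253 in null GFP-. After background correction it was at least 2.59-fold lower than in null GFP- (adjusted p = 0.0324) and at least 1.95-fold lower than in het GFP+ (adjusted p = 0.0540). The medians of the list were 0.09 and 0.13.

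Of 18 tested target genes, 0 passed in either comparison, and the medians were 0.32 against het GFP+ and 0.35 against null GFP-. Bmp4, a secreted growth factor, read 548 and 739 units in the libraries labelled null GFP+, against 1706 units in het GFP+ and 1813 units in null GFP-. Its log2 difference was -1.57 (adjusted p = 0.0947) and -1.67 (adjusted p = 0.0813). Tnfrsf19, a receptor of the TNF family, was higher by at least 1.07-fold in null GFP+ (137 and 191 units, against 97.0 in het GFP+ and 102.7 in null GFP-), and its adjusted p was 0.260 and 0.294. Of 10 fat cell genes that Wnt signalling is known to repress in preadipocytes, 7 were tested, and Pparg and Adipoq were higher in each comparison. Adipoq, the adiponectin gene, read 819 and 3345 units in null GFP+, against 126 units in het GFP+ and 122 units in null GFP-. On the corrected scale the mean of the null GFP+ libraries was at least 24.8-fold higher (adjusted p = 0.0479 and 0.0453). These libraries differed from each other by 2.16 on the log2 scale.

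**Figure D4:**
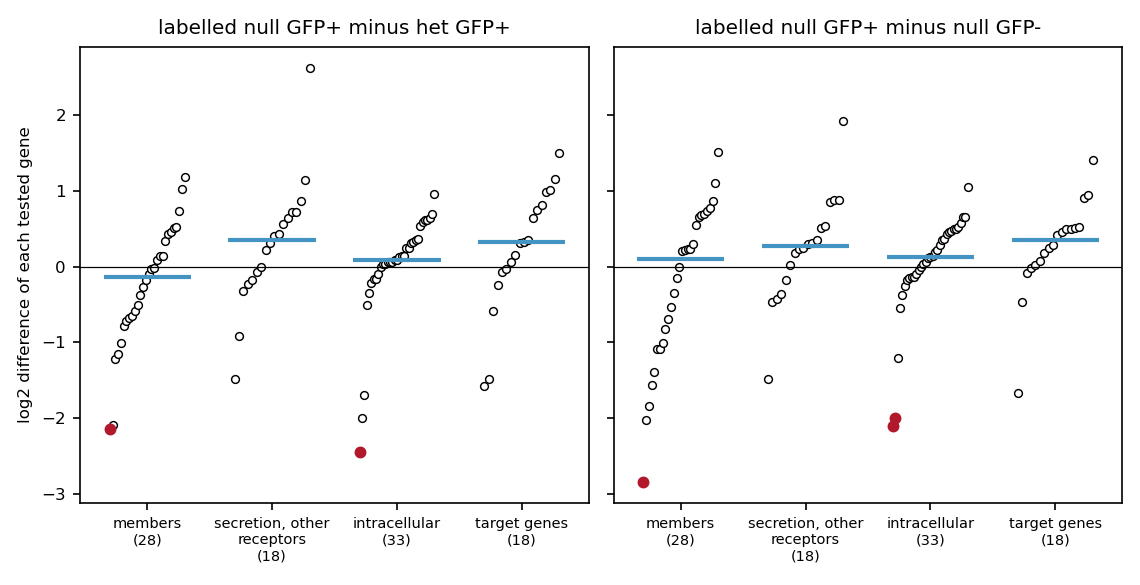
Log2 difference of each tested gene in the Wnt members and 3 further pathway lists, for null GFP+ minus het GFP+ (left) and minus null GFP- (right). Horizontal bars are medians and filled points have an adjusted p under 0.05, which are Sfrp4 and Dact2 on the left and Sfrp4, Dact2 and Cxxc4 on the right. The medians lie between -0.14 and 0.36 in every list.

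Markers of several cell types moved with the labels. The counts below stand beside 2.63% of all genes called lower and 1.30% higher against het GFP+, and 2.66% and 1.31% against null GFP-. The counts cover tested markers, whereas the summed intensities cover every marker of a list on the array, including those not tested. Of 11 tested mast cell and neutrophil markers, 11 were lower in null GFP+ in each comparison. The summed intensity of the list was 1671 to 1688 units in null GFP+, against 90125 units in het GFP+ and 89167 units in null GFP-. Of 10 macrophage markers, 7 were lower in each comparison, with sums of 2899 to 6802 units in null GFP+, 28176 in het GFP+ and 22326 in null GFP-. Endothelial markers ran the other way, 8 of 11 higher against het GFP+ and 9 of 11 against null GFP-, with sums of 13517 to 15056 units in null GFP+, 8287 in het GFP+ and 6088 in null GFP-. Tek, a brightly read gene of that list, was not among them, with 3061 and 2097 units in null GFP+, 5293 in het GFP+ and 3815 in null GFP- (log2 difference -1.09 against het GFP+, adjusted p = 0.231). Of 7 fat cell markers, 4 were higher in each comparison, with sums of 9302 to 18644 units in null GFP+, 2400.2 in het GFP+ and 2302 in null GFP-.

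The markers of progenitor and stromal cells, the cells sought by the sort, were all 11 tested. Of these, 1 (Pi16) was lower in null GFP+ in each comparison, and their summed intensity was 195247 to 216556 units in null GFP+, 246238 in het GFP+ and 256320 in null GFP-. Of 11 mural markers, 1 (Notch3) was higher in each comparison, with sums of 7199 to 11498 units in null GFP+, 5503 in het GFP+ and 9218 in null GFP-. Skeletal muscle markers were lower in 6 of 9 genes against het GFP+ and in 1 of 9 against null GFP-, with sums of 1569 to 1782 units in null GFP+, 5646 in het GFP+ and 1959 in null GFP-. Of 5 mesothelial and epithelial markers, 1 (Upk3b) was lower in each comparison. The part of these cell types in the differences of Sfrp4, Sfrp2, Wnt2 and Wnt10b was not tested. Among the defining markers, Kdr (endothelial), Itgam (macrophage), Ms4a2 (mast cell) and Fabp4, Lipe, Slc2a4 and Retn (fat cell) were not well above background in any library.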

How the data were processed

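The authors' deposited series table held 1 intensity per probe and library for 45281 probes, already normalized so that sorted values differed from their mean by at most 0.380%, with a median intensity of 120.2. A second deposited table gave detection p-values. Its 4 signal columns, named unlike any label, were left aside, and its p-values were applied by rank to the common distribution. The software behind both tables was not given in the sources used here.

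Intensities were corrected by normexp from the detection p-values (background mean 108, SD 13.6), offset by 16, taken to log2 and quantile normalized. The 17379 probes detected (p under 0.01) by 1 array or more were fitted with limma 3.58.1 in R 4.3.3, with 3 groups and 1 residual degree of freedom. The Benjamini-Hochberg adjustment ran over all of them. Of the probes, 34885 had 1 gene symbol, 18 several and 10378 none. GEO's platform annotation named the genes, and 34807 probes were looked up by gene number, which changed 0 symbols. The number of arrays limits the precision. The looser rule, over 2-fold at an unadjusted p under 0.05, follows the study's methods, whose Student t-test was run as an alternative beside other background corrections, offsets, filters, variance models and probes.

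Every tested member is named, as are pathway genes with an adjusted p under 0.05 or, where none passed, up to 2 with the largest difference. Members and lists were chosen with earlier results of these data known. Promoter sequences came from RefSeq, GRCm38.p6, and figures were drawn with matplotlib 3.10.9 in Python 3.11.15.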

Additional observations from a re-analysis of the deposited data

How the results depend on the processing

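The calls rest on 1 residual degree of freedom and on the variance shared across probes, and dim members such as Wnt10b, Fzd3 and Lrp6 are limited by signal over background. No paired analysis was possible because the groups compared share fewer than 2 replicate numbers. Leaving out a null GFP+ library leaves no test.

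Against het GFP+, the number of members lower at an adjusted p under 0.05, which was 1, became 2 with no background correction, with normexp without detection p-values (offset 50) and with eBayes with trend, and 0 with no filter on dim probes and with the methods' t-test after Benjamini-Hochberg. By the looser rule, the 5 lower members became 3 with no background correction, 3 under that normexp setting, and 0 with the methods' t-test, and the 1 higher member became 0 under these 3 and with an offset of 50. All genes called higher (130) became 234 with no background correction, 248 with normexp without detection p-values, 238 with trend, 16 with no filter and 2 with the t-test after adjustment. All genes called lower (262) became 359 with no background correction, 378 with normexp without detection p-values and 351 with trend. They became 40 with no filter and 3 with that t-test. By the looser rule the methods' t-test called 99 genes higher and 189 lower, in place of 516 and 631.

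Against null GFP-, the 0 higher members became 1 with detection on at least 2 arrays, and the 1 lower member became 4 with no background correction, under that normexp setting or with trend, 3 with an offset of 50, 2 with detection on at least 2 arrays, and 0 with no filter and with the t-test after adjustment. By the looser rule, the 1 higher member became 0 with no background correction, with that normexp setting and with an offset of 50, and the 7 lower members became 4 with no background correction and 2 with the methods' t-test. All genes called higher (131) became 206 with no background correction, 233 with normexp without detection p-values and 230 with trend. They became 162 with detection on at least 2 arrays, 0 with no filter and 2 with the t-test after adjustment. All genes called lower (265) became 371 with no background correction, 403 with normexp without detection p-values and 363 with trend. They became 310 with an offset of 50, 300 with detection on at least 2 arrays, 0 with no filter and 3 with that t-test. By the looser rule the methods' t-test called 105 genes higher and 203 lower, in place of 488 and 708.

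Counted over 2-fold with no test, members were 2 higher and 5 lower against het GFP+, and 2 higher and 8 lower against null GFP-. With no background correction these became 0, 3, 0 and 4, and with the mean over all tested probes the higher members became 1 in each comparison. Leaving out 1 null GFP+ library gave 1 to 2 higher and 4 to 6 lower against het GFP+, and 3 to 4 higher and 6 to 9 lower against null GFP-. Without replicate 3 the higher members against het GFP+ were 1, and without replicate 1 those against null GFP- were 4. This rule was not counted over all genes in these comparisons, so these member counts have no background share beside them.

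The log2 difference of Pparg, 4.84 and 4.55, lost its call with the methods' t-test after adjustment (adjusted p = 0.608 and 0.625) and, against null GFP-, with no filter (adjusted p = 0.0621). Another probe reversed Rspo3 against het GFP+ (0.84) and, against null GFP-, Lrp6 (-0.14), Rspo3 (0.59), Sfrp1 (-0.045), Tcf7l2 (-0.10) and Wnt6 (-0.83). With no background correction Rspo3 against null GFP- was 0.0023. Besides these, Sfrp4 lost its call with no filter and with the t-test after adjustment in each comparison. Sfrp2 gained one against het GFP+ under 3 alternatives, and Sfrp2, Wnt2, Fzd10os and Lrp6 did so against null GFP-, in 13 fits together. The cause was not tested. Leaving out 1 null GFP+ library also turned the sign of Fzd4, Fzd10, Rspo1 and Tcf7l2 against het GFP+, of Fzd8 against null GFP-, and of Fzd6, Fzd7 and Rspo3 in both, and Fzd10 against het GFP+ was 0.69 without replicate 1 and -0.40 without replicate 3. None of these was called. Other named members kept their direction and side of the threshold under the settings run.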
